A study of Sus scrofa with 4 samples.

Results

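The 32 genes described here encode enzymes that make and recycle the nucleotides of DNA and RNA, together with the folate enzymes that supply carbon units for purines and thymidylate. They were chosen by gene symbol, and all 32 were found among the 29884 rows of the pig count table. All 32 also passed the filter on low counts, which left 14352 genes to test. By role, 8 act on deoxynucleotides, 5 in pyrimidine synthesis, 11 in purine synthesis, 5 in folate metabolism and 3 as a nucleotide kinase or in purine salvage.

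RNA sequencing was done on granulosa cells, which surround the oocyte in the ovary and nourish it, from antral follicles of pigs. Part of the cells was used for flow cytometry, and the rest was grouped by its G0/G1 share, meaning cells that have not begun to copy their DNA, into 2 high G0/G1 libraries and 2 low G0/G1 libraries. The labels name no treatment, genotype, breed, age or animal for either group, and they do not say how many follicles went into a library. It is therefore not known whether a group holds more than 1 animal, and the p-values rest on a spread between libraries that may not be a spread between animals. Since cell cycle phase set the groups, lower levels of genes tied to DNA synthesis in the high G0/G1 libraries are part of how the groups were made. In bulk RNA, fewer cycling cells and less RNA per cell cannot be told apart.

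Library totals ran from 27442850 to 32674921 counts, and levels are given as CPM, counts relative to the library total after TMM scaling between libraries. All 10 granulosa markers looked up were detected, at a summed 19661 and 12155 CPM in the high G0/G1 libraries against 13721 and 12561 CPM in the low ones. INHA was the largest part of each sum, at 10600 and 8000 CPM in high and 7750 and 6710 CPM in low. Single markers went both ways. FSHR, FOXL2, AMH, INHBA and HSD17B1 were lower in both high libraries than in both low ones. INHA, AMHR2, NR5A2 and CYP19A3 were higher, and FST overlapped. The 6 markers of stroma and smooth muscle summed to 63.8 and 79.7 CPM in high and to 37.4 and 639 CPM in low G0/G1 libraries, so low replicate 2 stood apart. The 4 theca markers summed to 84.8 and 121 CPM in high and 122 and 361 CPM in low, and they did not share a direction. The theca enzyme gene CYP17A1 had 0.772 and 1.02 CPM in high against 0.125 and 51.5 CPM in low. INSL3 had 17.6 and 30.0 CPM in high against 75.3 and 260 CPM in low. NR2F2 (31.4 and 33.3 against 27.0 and 25.9 CPM) and PTCH1 (35.1 and 56.9 against 19.3 and 23.6 CPM) were higher in both high libraries. Endothelial markers summed to 12.9 and 40.4 CPM in high and 6.74 and 49.1 CPM in low, and markers of erythrocytes to 27.5 and 19.9 CPM against 9.25 and 15.7 CPM. The 5 leukocyte markers reached at most 2.63 CPM in sum in any library. Of 5 oocyte markers only GDF9 reached 10 counts in a library, and ZP2 had 0 counts in all 4. The part of these other cells in the results was not tested.

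Cells about to copy their genome need deoxynucleotides in balanced supply. Ribonucleotide reductase turns ribonucleotides into deoxyribonucleotides, and thymidylate synthase adds a carbon unit from folate to make thymidylate, the nucleotide particular to DNA. Bases are built by the de novo routes, which dividing cells use most heavily, or recovered by salvage. Granulosa cells divide in growing follicles and leave the cycle as they luteinise.

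Most of the 32 genes were lower in high than in low G0/G1 cells, and the deoxynucleotide enzymes had the lowest median of the 5 classes. The log2 fold change, high minus low, was below 0 in 30 of the 32, against 50.6% of all genes tested, and the median was -0.84 against -0.01 for all genes. Without low replicate 2, the library high in stromal markers, the median of the 32 was -0.93. Both high libraries lay below both low ones in 27 of 32, against 29.8% of all genes, and above them in 2, PPAT and PAICS, against 26.8%. UMPS, GMPS and MTHFD1L overlapped between the groups. A log2 fold change below -1 was found in 12 of 32, against 11% of all genes, and one above 1 in PPAT alone, against 11.3%.

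By edgeR's quasi-likelihood test 0 of the 32 genes passed an adjusted p under 0.05 in either direction, and 0% of all genes did, and 0.148 was the smallest adjusted p among them. Before adjustment, 20 were lower with p under 0.05, where 10.8% of all genes tested were, and 1 was higher, where 9.92% were. That count of 20 was 8 without low replicate 1, where 4.81% of all genes were lower. DESeq2 called 12 of them lower, against 5.48% of genes with an adjusted p, and 1 higher, against 5.79%, while limma-voom called 0 in either direction and had 20 lower and 1 higher before adjustment, against 11.9% and 9.85% of all genes. Without high replicate 1 edgeR called 10 lower, against 3.92% of all genes, and 1 higher, against 2.41%. The members called lower by DESeq2 were TYMS, TK1, DUT, RRM1, RRM2, DCK, CTPS1, PRPS1, PFAS, ATIC, SHMT1 and NME1, and PPAT was called higher.

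**Figure D1:**
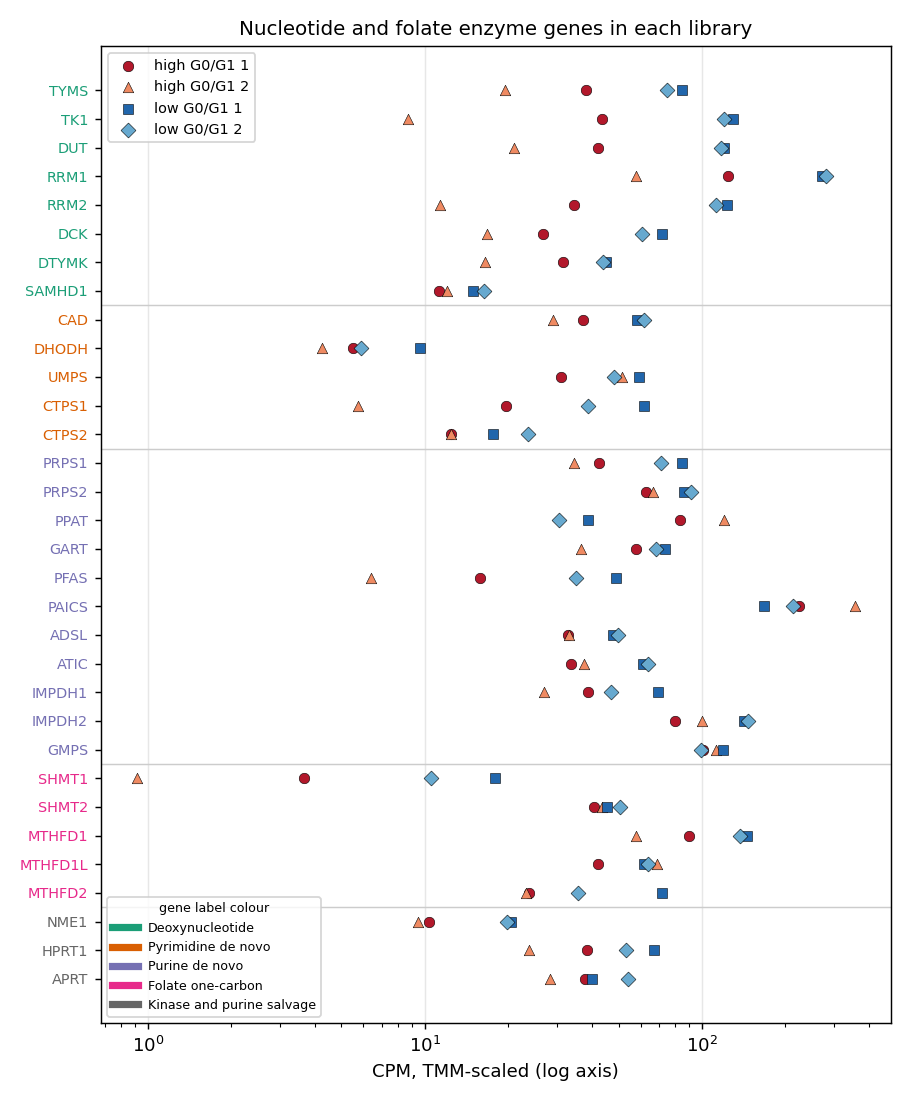
Level of each of the 32 genes in each library, in TMM-scaled CPM on a log axis, with genes grouped by class and label colours giving the class. Red circles and orange triangles are the 2 high G0/G1 libraries, and blue squares and diamonds the 2 low ones; the high libraries lie left of the low ones in 27 genes and right of them in PPAT and PAICS.

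The 8 deoxynucleotide genes were all lower in both high G0/G1 libraries than in either low one, as were 29.8% of all genes tested. Their median log2 fold change was -1.60, and it ranged from -2.15 without high replicate 1 to -1.23 without high replicate 2. RRM2 (chromosome 3, 126357198 to 126367145 in Sscrofa11.1), the small subunit of ribonucleotide reductase that is made for S phase, had 34.5 and 11.4 CPM in high against 123 and 112 CPM in low G0/G1 libraries. The low libraries were alike and the high ones differed 3.03-fold from each other. RRM1, the large subunit, which holds the active site, had 124 and 58.0 CPM in high and 269.8 and 280.3 CPM in low. Their log2 fold changes were -2.36 ± 0.54 (SE, edgeR adjusted p = 0.168) and -1.59 ± 0.40 (adjusted p = 0.170).

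TYMS (chromosome 6, 105642730 to 105660279) encodes thymidylate synthase, and its level was 38.1 and 19.4 CPM in high against 84.3 and 74.7 CPM in low. TK1 (chromosome 12, 3785997 to 3794824), the cytosolic thymidine kinase that salvages thymidine, had 43.4 and 8.67 CPM in high against 128.8 and 119.9 CPM in low. High replicate 1 thus held 5.01 times the TK1 level of high replicate 2, more than for any other of the 32 genes. The log2 fold changes were -1.47 ± 0.36 for TYMS (edgeR adjusted p = 0.170) and -2.26 ± 0.74 for TK1 (adjusted p = 0.202), and that of TK1 was -3.85 without high replicate 1 and -1.52 without high replicate 2.

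DUT, the dUTPase that keeps uracil out of DNA and yields the substrate of TYMS, had 42.0 and 21.0 CPM in high and 119.9 and 117 CPM in low G0/G1 libraries. DCK, the kinase of deoxycytidine, had 26.6 and 16.8 CPM in high and 71.5 and 60.9 CPM in low. In both genes the lowest low library was more than 2-fold above the highest high library, by 2.79 times for DUT and 2.29 times for DCK. The log2 fold changes were -1.91 ± 0.37 (edgeR adjusted p = 0.152) and -1.61 ± 0.30 (adjusted p = 0.151). DTYMK, which phosphorylates thymidylate, was closer between groups, at 31.6 and 16.5 CPM in high and 44.9 and 43.8 CPM in low, with a log2 fold change of -0.88 ± 0.36 (adjusted p = 0.247). SAMHD1, which breaks deoxynucleoside triphosphates down, was also lower by sign, at 11.2 and 12.0 CPM in high and 14.9 and 16.3 CPM in low. Its log2 fold change, -0.42 ± 0.27 (adjusted p = 0.406), was the smallest in size of the class, and it was the one of the 8 that did not differ more than 1.5-fold between the high libraries.

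**Figure D2:**
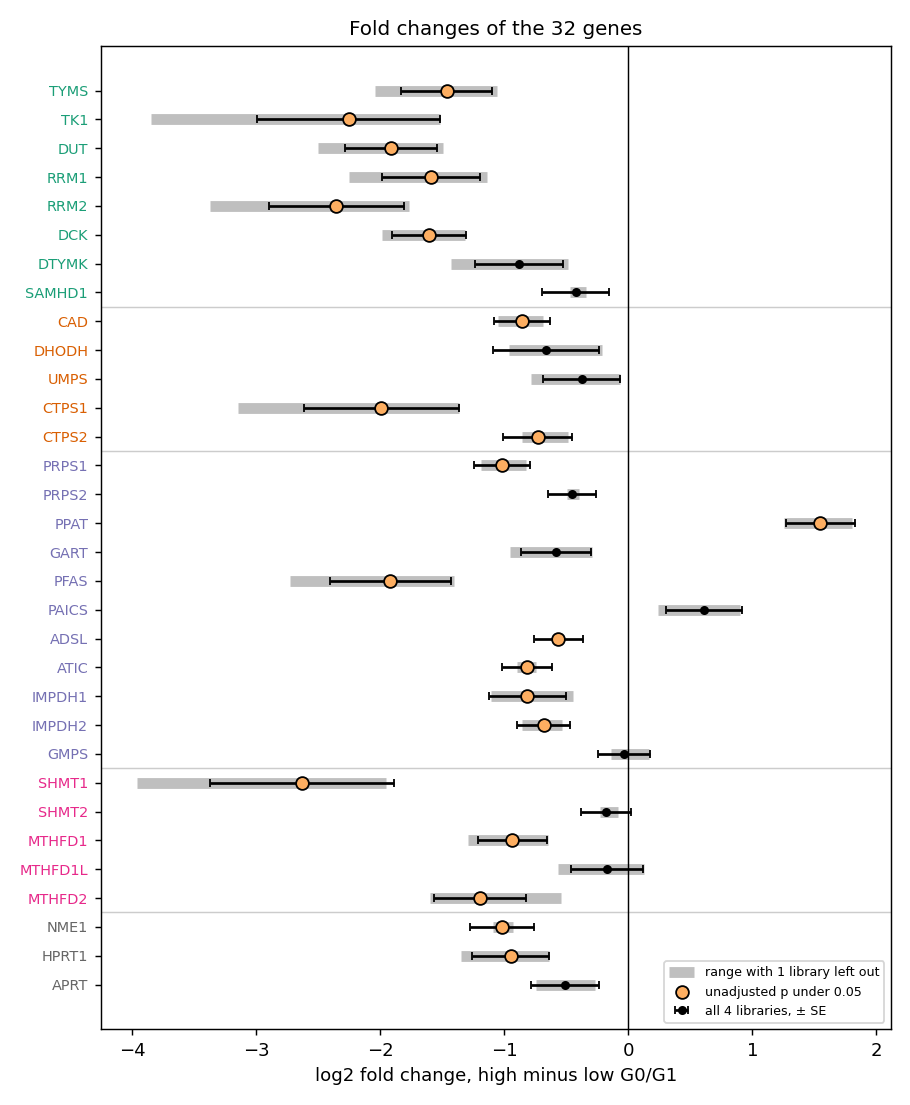
Log2 fold change of each gene, high minus low G0/G1, from edgeR's quasi-likelihood fit (points, ± SE), with the range over the 4 fits that leave out 1 library each as a grey bar. Orange points have an unadjusted p under 0.05, and 30 of 32 points lie left of 0.

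Pyrimidine synthesis was lower by sign in each of its 5 genes, with a median log2 fold change of -0.73, and the CTP synthase gene CTPS1 was furthest from 0. CTPS1 (chromosome 6, 170201749 to 170233105), the CTP synthase that proliferating lymphocytes depend on in human, had 19.6 and 5.72 CPM in high and 61.8 and 38.9 CPM in low G0/G1 libraries. Its log2 fold change was -1.99 ± 0.63 (edgeR adjusted p = 0.196), with -3.15 without high replicate 1 and -1.36 without high replicate 2. Its paralog CTPS2, on the X chromosome, had 12.4 CPM in each high library against 17.6 and 23.6 CPM in low, a log2 fold change of -0.73 ± 0.28 (adjusted p = 0.232). CAD, the multifunctional enzyme of the initial steps, had 37.2 and 29.1 CPM in high and 58.4 and 61.6 CPM in low, and its log2 fold change was -0.85 ± 0.23 (adjusted p = 0.175).

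The remaining steps to UMP differed less between the groups. DHODH, which works in the mitochondrial inner membrane, had 5.50 and 4.25 CPM in high and 9.57 and 5.89 CPM in low, so that high replicate 1 and low replicate 2 lay within 1.07-fold of each other. UMPS, the enzyme that completes UMP, overlapped, with 31.0 and 51.4 CPM in high and 59.1 and 48.0 CPM in low. The log2 fold changes were -0.67 ± 0.42 (edgeR adjusted p = 0.411) and -0.38 ± 0.31 (adjusted p = 0.521).

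Purine synthesis went both ways within a single route, with PPAT above 0 and PFAS below it. The class had 9 of 11 genes below 0 and a median log2 fold change of -0.58. PPAT (chromosome 8, 55652194 to 55701077), the amidotransferase of the first committed step, had 82.9 and 119.8 CPM in high against 38.9 and 30.6 CPM in low G0/G1 libraries. PAICS (chromosome 8, 55700700 to 55722982), a later enzyme of the route with carboxylase and synthetase activities, had 223 and 355 CPM in high against 167 and 212 CPM in low. PPAT was separated by 2.13 times between its nearest libraries, whereas for PAICS these differed by 1.05 times. The log2 fold changes were 1.55 ± 0.28 for PPAT (edgeR adjusted p = 0.148, DESeq2 adjusted p = 5.9e-04) and 0.61 ± 0.31 for PAICS (edgeR adjusted p = 0.316), and that of PAICS was 0.90 without high replicate 1 and 0.24 without high replicate 2.

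PPAT and PAICS are neighbours whose annotated spans overlap by 378 bases in Sscrofa11.1, and in human and chicken they are known to be read in opposite directions from a shared promoter. Whether reads were counted by strand is not stated in the labels, and reads in the overlap may be shared between them. The log2 ratio of PPAT to PAICS within a library was -1.43 and -1.57 in high and -2.10 and -2.79 in low, higher in both high libraries than in both low ones. The genes on either side, chosen after their values were seen, overlapped between groups. AASDH, next to PPAT, had 64.8 and 58.6 CPM in high against 47.4 and 59.3 CPM in low, and SRP72, next to PAICS, had 109.5 and 191 CPM in high against 133 and 105 CPM in low. Their log2 fold changes were 0.21 ± 0.22 and 0.34 ± 0.33, with edgeR adjusted p-values of 0.613 and 0.591.

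PFAS (chromosome 12, 53458401 to 53477254), the amidotransferase that acts between PPAT and PAICS in the route, had 15.8 and 6.39 CPM in high against 49.1 and 35.0 CPM in low G0/G1 libraries. Its log2 fold change was -1.92 ± 0.49 (edgeR adjusted p = 0.171). The log2 ratio of PPAT to PFAS within a library, a pair chosen after the values were seen, was 2.38 and 4.21 in high against -0.33 and -0.20 in low, a difference of 3.56 that does not depend on scaling between libraries. GART, which carries out several steps around PFAS, had 57.8 and 36.7 CPM in high and 73.6 and 68.0 CPM in low, with a log2 fold change of -0.58 ± 0.28 (adjusted p = 0.303). The enzymes that finish IMP were lower with little spread: ADSL had 32.8 and 33.0 CPM in high against 47.7 and 49.6 CPM in low, and ATIC 33.6 and 37.5 CPM in high against 61.5 and 63.8 CPM in low. Their log2 fold changes were -0.57 ± 0.20 (adjusted p = 0.214) and -0.82 ± 0.20 (adjusted p = 0.169), and with any 1 library left out that of ADSL stayed between -0.57 and -0.52.

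**Figure D3:**
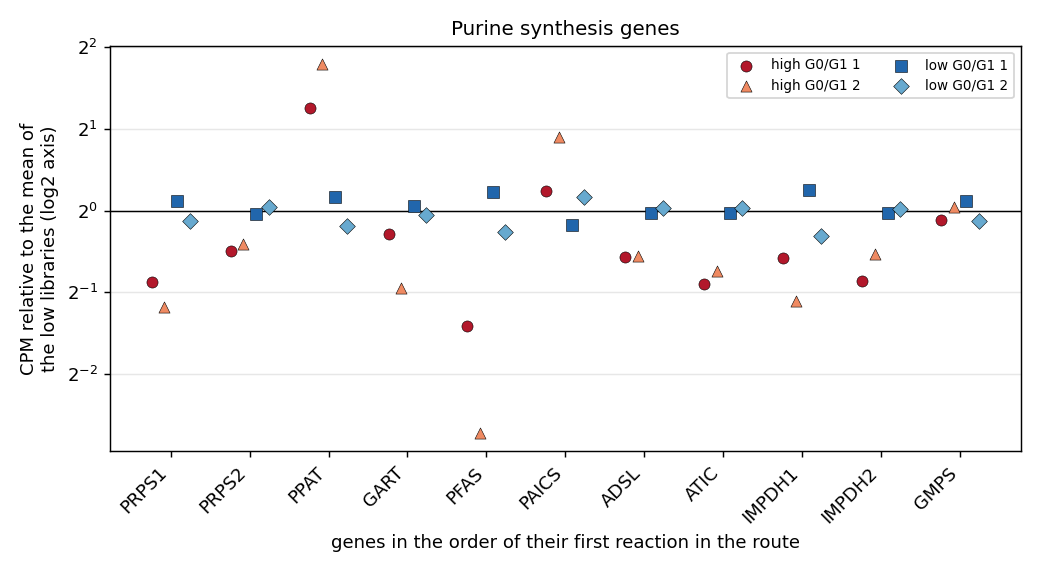
CPM of the 11 purine synthesis genes in each library relative to the mean of the 2 low G0/G1 libraries, on a log2 axis, in the order in which each enzyme first acts. PPAT stands above 1 and PFAS below 1 in both high libraries, and GMPS lies near 1 in all 4.

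The enzymes that feed the route and divide its product also differed among themselves. PRPS1, which makes the activated ribose that PPAT uses, had 42.5 and 34.5 CPM in high and 84.8 and 71.3 CPM in low, a log2 fold change of -1.02 ± 0.23 (edgeR adjusted p = 0.162). Its paralog PRPS2 had 62.9 and 66.7 CPM in high and 86.3 and 91.4 CPM in low, a log2 fold change of -0.46 ± 0.19 (adjusted p = 0.261). IMPDH1 had 38.8 and 27.0 CPM in high and 69.1 and 46.8 CPM in low, and IMPDH2 had 79.8 and 100.2 CPM in high and 142 and 147 CPM in low. IMPDH1 and IMPDH2, the IMP dehydrogenases that commit IMP to guanine nucleotides, had log2 fold changes of -0.82 ± 0.31 (adjusted p = 0.231) and -0.68 ± 0.21 (adjusted p = 0.196). GMPS, which acts next, overlapped at 101 and 112 CPM in high against 119 and 99.5 CPM in low, and its log2 fold change of -0.04 ± 0.21 (adjusted p = 0.937) had the smallest size of the 32.

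Of the folate enzymes, all but MTHFD1L had lower levels in each high library than in either low one, as did 29.8% of all genes tested. For SHMT2 the nearest libraries differed by only 1.04 times. The mitochondrial SHMT2 and MTHFD1L had log2 fold changes near 0, while both cytosolic genes and the mitochondrial MTHFD2 were further below it. SHMT1 (chromosome 12, 60414421 to 60435451), the cytosolic serine hydroxymethyltransferase that hands a carbon unit from serine to folate, had 3.66 and 0.913 CPM in high against 17.9 and 10.5 CPM in low G0/G1 libraries. This was the lowest log2 fold change of the 32, -2.64 ± 0.74 (edgeR adjusted p = 0.181, DESeq2 adjusted p = 0.00656), but the level was low, with 109 and 26 counts in high and 571 and 304 counts in low. It was -3.97 without high replicate 1 and -1.96 without high replicate 2. SHMT2, the mitochondrial enzyme of the same reaction, had 40.9 and 43.5 CPM in high against 45.3 and 50.6 CPM in low, a log2 fold change of -0.18 ± 0.20 (adjusted p = 0.640).

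MTHFD1, the cytosolic enzyme that interconverts the folates carrying these units, had 89.7 and 57.6 CPM in high and 145 and 137 CPM in low, with a log2 fold change of -0.94 ± 0.28 (edgeR adjusted p = 0.187). Its mitochondrial relative MTHFD1L, which releases formate, overlapped at 42.2 and 69.0 CPM in high and 61.8 and 63.8 CPM in low, with -0.18 ± 0.29 (adjusted p = 0.759). MTHFD2, a mitochondrial dehydrogenase and cyclohydrolase high in embryonic and dividing cells, was further from 0 than the other mitochondrial genes. It had 23.8 and 23.2 CPM in high against 72.0 and 35.8 CPM in low, and its log2 fold change of -1.20 ± 0.37 (adjusted p = 0.195) became -0.54 when low replicate 1 was left out and -1.60 when low replicate 2 was. The high libraries were alike for MTHFD2 while the low ones differed 2.01-fold.

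Among the remaining genes, NME1, a nucleoside diphosphate kinase, had 10.4 and 9.44 CPM in high and 20.4 and 19.7 CPM in low G0/G1 libraries. Its log2 fold change of -1.02 ± 0.26 (edgeR adjusted p = 0.171) lay between -1.10 and -0.93 with any 1 library left out. HPRT1, which salvages hypoxanthine and guanine, had 38.5 and 23.8 CPM in high and 66.9 and 53.3 CPM in low, with -0.95 ± 0.31 (adjusted p = 0.202). APRT, which salvages adenine, had 37.7 and 28.2 CPM in high and 40.0 and 54.1 CPM in low, with -0.51 ± 0.27 (adjusted p = 0.338), and its nearest libraries differed by 1.06 times. CDT1, a replication licensing gene named after its values were seen, lies 98 bases from the annotated span of APRT and had a log2 fold change of -2.32 ± 0.82. GALNS, another neighbour of APRT at 134 bases, went the other way, with 0.63 ± 0.27.

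The genes differed in how the pair of high G0/G1 libraries compared. High replicate 1 exceeded high replicate 2 by more than 1.5 times in 13 of the 32 genes, against 20% of all genes tested, among them 7 of the 8 deoxynucleotide genes and CTPS1, PFAS, GART, SHMT1, MTHFD1 and HPRT1. The threshold of 1.5 was set after the values were seen, and the counts are a description of these 2 libraries. High replicate 2 exceeded high replicate 1 by as much in UMPS, PAICS and MTHFD1L, or 9.38% of the genes, against 17.8% of all genes. In the other 16 the libraries differed by less, and these genes did not all share a direction. NME1, ATIC, ADSL, PRPS2 and MTHFD2 among them were lower by sign than in the low libraries. PPAT, also among them, was higher, and GMPS overlapped between groups. Among 12 replication markers, such as PCNA and the MCM2 to MCM7 helicase genes, the median ratio of high replicate 1 to high replicate 2 was 4.36, against 1.98 for the deoxynucleotide genes and 0.94 for purine synthesis. In 17 of 32 genes the libraries stood in 1 order, high replicate 2 lowest, then high replicate 1, low replicate 2 and low replicate 1, against 12.5% of all genes.

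The replication markers themselves had a median log2 fold change of -2.03, which was -3.53 without high replicate 1 and -1.41 without high replicate 2, with 12 of 12 below 0. By edgeR 0 passed the adjusted threshold and 10 were lower at an unadjusted p under 0.05, against 10.8% of all genes, while DESeq2 called 10 lower, against 5.48%. MCM7, MCM5, MCM6 and the cyclin gene CCNA2, those with the smallest p, had -1.51 ± 0.23, -1.88 ± 0.36, -2.20 ± 0.56 and -2.32 ± 0.67. Averaged over its genes on the log2 scale, the deoxynucleotide class stood at -0.31 and -1.37 in the high and at 0.88 and 0.81 in the low G0/G1 libraries, relative to each gene's mean over the 4. The replication markers stood at -0.17 and -2.03 in high and at 1.20 and 1.0 in low. The other classes spanned less, with purine synthesis at -0.19 and -0.26 in high and 0.29 and 0.16 in low.

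**Figure D4:**
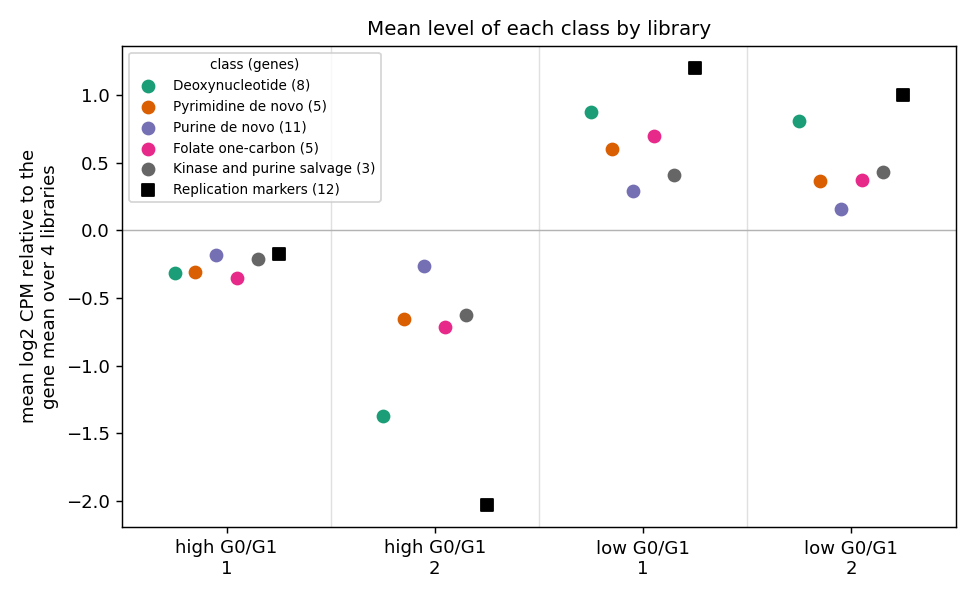
Mean log2 CPM of the genes of each class in each library, relative to each gene's mean over the 4 libraries; circles are the 5 classes and black squares the 12 replication markers. High replicate 2 is the lowest library in each of the 5 classes, from -0.26 for purine synthesis to -1.37 for the deoxynucleotide class, and for the replication markers, at -2.03.

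Enzymes that exist in 2 forms were compared as log2 ratios within a library, which do not depend on scaling between libraries. The ratio itself also reflects transcript length, so only its difference between groups is read, and with 2 libraries a group an exact permutation test cannot go below a two-sided p of 0.3333. Of 11 pairs, TK1 over TK2, its mitochondrial counterpart, differed by -2.94 between groups, at -0.13 and -2.46 in high against 1.89 and 1.39 in low. RRM2 over RRM2B, the subunit that serves cells outside S phase, differed by -2.47, at 0.75 and -0.06 in high and 2.77 and 2.86 in low. DCK over the mitochondrial kinase DGUOK differed by -2.10, at 0.40 and -0.45 in high and 2.35 and 1.81 in low. In these 3 pairs the S phase or cytosolic form was lower relative to the other in both high libraries.

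SHMT2 over SHMT1 differed by 2.67, at 3.46 and 5.47 in high against 1.33 and 2.25 in low, so the mitochondrial form was higher relative to the cytosolic one in both high libraries. MTHFD2 over MTHFD2L differed by -2.12, at 2.28 and 2.00 in high and 5.01 and 3.51 in low, where MTHFD2L had a log2 fold change of 1.02 ± 0.44 (edgeR adjusted p = 0.270). CTPS1 over CTPS2 was 0.66 and -1.11 in high and 1.81 and 0.72 in low, with the nearest libraries close together. PRPS1 over PRPS2 differed by -0.57, NME1 over NME2 by -0.33 and MTHFD1L over MTHFD1 by 0.75, the last of these at 1.42 without high replicate 1 and 0.08 without high replicate 2. IMPDH2 over IMPDH1 and MTHFD2 over MTHFD1 overlapped between groups.

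**Figure D5:**
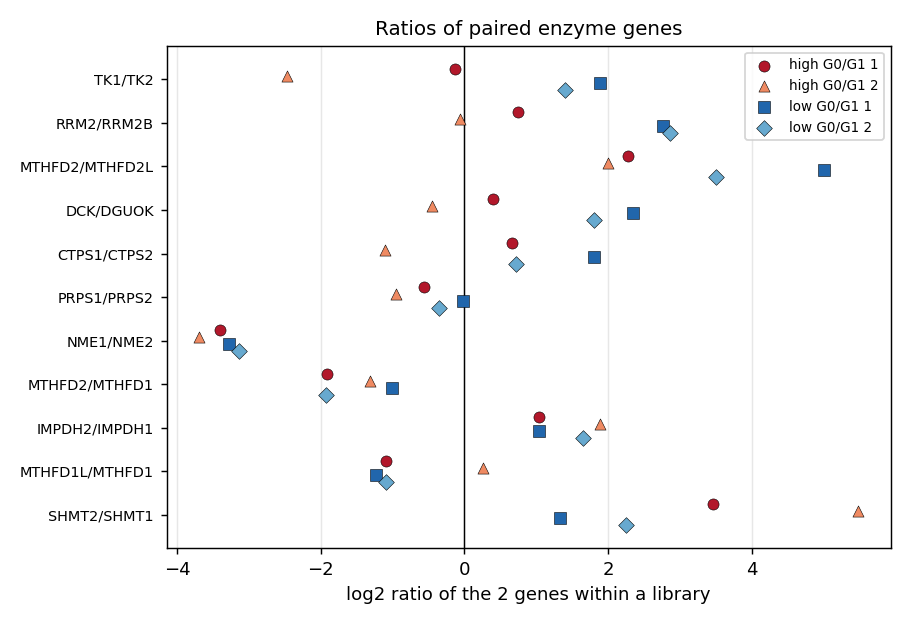
Log2 ratio of the 2 genes of each enzyme pair within each library, sorted by the difference between groups; red and orange points are the high and blue points the low G0/G1 libraries. TK1/TK2, RRM2/RRM2B and DCK/DGUOK lie further left, and SHMT2/SHMT1 further right, in both high libraries than in both low ones.

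Other genes of nucleotide salvage, breakdown and transport had a median nearer to 0 than the 32. Of 50 listed, 41 were tested, 30 of them below 0 and 11 above, with a median log2 fold change of -0.35. By edgeR 0 passed the adjusted threshold, while 11 of the 41 were lower and 0 higher at an unadjusted p under 0.05, against 10.8% and 9.92% of all genes. DESeq2 called 7 lower and 0 higher, against 5.48% and 5.79%. UCK2, a uridine and cytidine kinase, had 13.2 and 17.4 CPM in high against 48.6 and 47.7 CPM in low, a log2 fold change of -1.65 ± 0.25 (adjusted p = 0.127). DCTPP1, which hydrolyses deoxycytidine triphosphate and its modified forms, had -1.77 ± 0.32, and NT5C, a nucleotidase of deoxynucleotides, had -2.23 ± 0.52. The equilibrative nucleoside transporter gene SLC29A1, chosen after its values were seen, had 28.7 and 8.60 CPM in high against 107 and 90.1 CPM in low.

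Forms of these enzymes that work outside S phase or in mitochondria had log2 fold changes close to 0 or above it. RRM2B overlapped at 20.5 and 11.8 CPM in high against 18.0 and 15.4 CPM in low, with a log2 fold change of -0.04 ± 0.35, and TK2 had 47.7 and 48.2 CPM in high against 34.8 and 45.6 CPM in low, with 0.26 ± 0.23. Above 0, the members with the smallest p were NME7 (0.90 ± 0.38), the nucleoside transporter gene SLC28A2 (1.63 ± 0.71) at no more than 1.05 CPM, DGUOK (0.46 ± 0.26) and the mitochondrial kinase gene AK3 (0.26 ± 0.23).

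Genes of folate uptake, folate recycling and serine synthesis had no common direction. Of 24 listed, 22 were tested, 13 below 0 and 9 above, with a median log2 fold change of -0.12 that was 0.04 without high replicate 2. By edgeR 0 passed the adjusted threshold, and 2 of the 22 were lower and 1 higher at an unadjusted p under 0.05, shares no larger than the 10.8% and 9.92% of all genes. DESeq2 called 2 lower and 0 higher, against 5.48% and 5.79%. PHGDH, which starts serine synthesis from glucose, had 11.3 and 4.39 CPM in high against 21.9 and 27.3 CPM in low, with a log2 fold change of -1.64 ± 0.50 (edgeR adjusted p = 0.193). GCSH, of the glycine cleavage system, had -0.72 ± 0.39, and the folate carrier gene SLC19A1 had -0.39 ± 0.23.

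MTRR, which reactivates methionine synthase, had 46.0 and 48.3 CPM in high against 32.2 and 29.3 CPM in low, a log2 fold change of 0.62 ± 0.21 (edgeR adjusted p = 0.205). Also above 0 was ALDH1L2, a mitochondrial formyltetrahydrofolate dehydrogenase, with 0.49 ± 0.37.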

How the data were processed

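The deposited data are 1 table of raw read counts, whole numbers by gene symbol, for 4 granulosa cell libraries. Total RNA was extracted with Trizol and used at a RIN above 8, per the labels' protocols, and reads were aligned with HISAT2 to Sscrofa11.1, as the submitters' processing notes say. What counted the reads, with which annotation, strand setting and filters, is not given in the sources used here. An annotated gene overlapped 13 of the 32 members, so their reads may be shared, and reads of paralogs may be split.

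The high libraries were set against the low ones in edgeR 4.0.16 (R 4.3.3; filterByExpr at min.count 10 and min.total.count 15, TMM, glmQLFit and glmQLFTest, two-sided, no covariate), with Benjamini-Hochberg adjustment over 14352 genes. The common biological coefficient of variation was 0.371. SE was taken as the size of the log2 fold change divided by the root of F. Log2 CPM used a prior count of 2. Coordinates are from RefSeq's table for Sscrofa11.1. Replicate numbers follow the order of the samples and pair nothing.

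Alternatives were DESeq2 1.42.0, limma-voom 3.58.1, other scalings, no filter and each library left out. The tests were run on simulated counts first. The members and lists were chosen with earlier results of these data known. All 32 members are named. Libraries are given singly for the deoxynucleotide class and for up to 5 genes with the largest changes in each other class, and for others chosen after their values were seen. From each further list the text names up to 4 genes per direction by smallest p, RRM2B, TK2, PHGDH and the paired enzymes. Some genes that this rule takes are not reported here.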

Additional observations from a re-analysis of the deposited data

How the results depend on the processing

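Of the 32 genes, 30 kept their sign under each of 9 alternatives (DESeq2, limma-voom, 2 other scalings, no filter and 4 libraries left out in turn). The exceptions were GMPS, whose log2 fold change ranged from -0.14 to 0.16 with 1 library left out, and MTHFD1L, which ranged from -0.57 to 0.13. The median of the 32 ranged from -1.07 to -0.71 with 1 library left out by edgeR, and DESeq2, limma-voom, the scalings and no filter gave -0.85 to -0.81. The median of the folate and serine supply genes ranged from -0.28 to 0.037 with 1 library left out.

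The number of calls depended on the tool and on high replicate 1. DESeq2 called 767 genes higher and 725 lower, including 1 and 12 of the 32, and with no filter edgeR called 2 higher and 3 lower, none of the 32. With 1 library left out edgeR's counts ranged from 0 to 363 higher and 0 to 591 lower over all genes, and from 0 to 1 higher and 0 to 10 lower among the 32, and each of these calls came without high replicate 1. At an unadjusted p under 0.05 these 4 fits had 1 to 2 of the 32 higher, against 5.54% to 11.9% of all genes, and 8 to 18 lower, against 4.81% to 15.2%. DESeq2 with 1 library left out, added after seeing the data, called 14 of the 32 lower and 2 higher when high replicate 1 was dropped, against 9.68% and 7.54% of all genes. It called 9 and 1 when high replicate 2 was dropped (3.7% and 3.08% of all genes), 2 and 1 when low replicate 1 was (0.943% and 2.58%), and 5 and 0 when low replicate 2 was (1.09% and 1.56%). The lone library left in a group was assumed to vary like those of the other group. With 1 library left out, 2 to 3 of the 32 had groups that did not overlap with high above low, against 35.6% to 40.1% of all genes, and 27 to 29 with high below low, against 38.2% to 42.4%. No paired analysis was possible because the labels give no replicate numbers shared between the groups. Depth limits SHMT1 most, at 26 counts in high replicate 2. The log2 ratios of the 11 enzyme pairs moved by less than the spread between replicates with a prior count of 0.5. The cause of these changes was not tested.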
